A study of Homo sapiens with 2 samples.

Results

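The pregnancy-specific glycoprotein (PSG) genes are a human gene family that lies in a row on chromosome 19, and 10 members, PSG1 to PSG9 and PSG11, were found by symbol among the 57736 genes of the deposited RNA-Seq counts. The members were listed for description because of their reads in the comparison reported here, so the values that follow describe these libraries and no test was run on them. The counts compare 2 libraries, 1 from parental A1847 cells, a human epithelial ovarian cancer line with high CARM1, and 1 from CARM1 KO cells of the same line. CARM1 is an arginine methyltransferase that methylates histones and chromatin proteins, and the comparison asks which genes differ when it is lost. The knockout cells are a single CRISPR clone made with a lentiviral Cas9 vector, so the effect of the knockout and the character of that clone cannot be told apart. No drug treatment is named for either group, and both were grown in RPMI medium with fetal bovine serum. With 1 library in each group no difference has a replicate check, and the 95% intervals given cover counting error only.

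PSG proteins belong to the carcinoembryonic antigen branch of the immunoglobulin superfamily, built from an N-terminal variable-like domain followed by constant-like domains. They are secreted, and the syncytiotrophoblast of the placenta releases them into maternal blood in large amounts through pregnancy. Several of them bind heparan sulfate proteoglycans, integrins or tetraspanins, or release TGF-beta from its latent form. Their promoters lack a TATA box, and short GC-rich and CACCC-like elements near the start sites have been studied as binding sites of Sp1 and KLF factors.

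The family lies on chr19:43225790-43773682 of GRCh37, the build that the deposited counts use under the name hg19, over 547.893 kb. All 10 genes are protein coding and read from the minus strand, in the order PSG3, PSG8, PSG1, PSG6, PSG7, PSG11, PSG2, PSG5, PSG4 and PSG9 from low to high coordinates. Their promoters are close copies. The 250 bases before the annotated start of each canonical transcript were 93.5% (PSG6) to 97.3% (PSG7) identical to those of PSG4 in aligned bases. The promoter of PSG4, the member with the most reads, and that of PSG3, the member with the fewest, are shown to let the copies be compared. They lie at chr19:43709791-43710040 and chr19:43244634-43244883, both on the minus strand, and capitals mark the GC box, CCGCCC on this strand.
PSG4: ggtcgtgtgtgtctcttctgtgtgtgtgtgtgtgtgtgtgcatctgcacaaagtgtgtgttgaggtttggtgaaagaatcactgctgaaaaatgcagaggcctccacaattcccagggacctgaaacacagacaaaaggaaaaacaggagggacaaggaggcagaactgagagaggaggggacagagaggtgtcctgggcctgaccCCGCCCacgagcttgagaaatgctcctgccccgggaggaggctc
PSG3: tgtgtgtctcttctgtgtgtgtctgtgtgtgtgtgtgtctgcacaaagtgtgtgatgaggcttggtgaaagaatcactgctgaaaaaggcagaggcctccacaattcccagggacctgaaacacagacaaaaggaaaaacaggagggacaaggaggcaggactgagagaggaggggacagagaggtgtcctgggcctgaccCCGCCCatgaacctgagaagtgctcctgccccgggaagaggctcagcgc
Both promoters hold the box, which lies in runs of bases that are alike but not identical, with 3 differences in the 40 bases around it.

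The 40 bases around that box were then lined up in every member, since this is the stretch in which the family's studied CACCC-like element lies and its copies differ there. Capitals mark the 7 bases aligned with the GC box of PSG4, and each sequence is read 5′ to 3′ on the minus strand. The stretch lies at chr19:43709816-43709855 in PSG4, chr19:43773711-43773750 in PSG9, chr19:43690684-43690723 in PSG5 and chr19:43441356-43441395 in PSG7.
PSG3: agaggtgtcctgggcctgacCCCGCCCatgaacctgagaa
PSG8: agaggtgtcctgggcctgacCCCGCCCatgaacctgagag
PSG1: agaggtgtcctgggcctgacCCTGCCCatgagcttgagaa
PSG6: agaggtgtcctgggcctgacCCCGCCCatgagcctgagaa
PSG7: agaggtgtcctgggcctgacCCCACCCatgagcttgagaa
PSG11: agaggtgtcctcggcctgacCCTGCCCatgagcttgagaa
PSG2: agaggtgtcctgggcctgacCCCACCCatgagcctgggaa
PSG5: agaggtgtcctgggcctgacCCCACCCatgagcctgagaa
PSG4: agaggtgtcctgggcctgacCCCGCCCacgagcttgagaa
PSG9: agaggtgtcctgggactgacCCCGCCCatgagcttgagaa
The 7 bases read CCCGCCC in 5 members (PSG3, PSG8, PSG6, PSG4 and PSG9), CCCACCC in 3 (PSG7, PSG2 and PSG5) and CCTGCCC in 2 (PSG1 and PSG11). They begin 45 bases before the annotated start of the canonical transcript of PSG4, 48 bases before that of PSG9 and 15 bases before those of PSG5, PSG2 and PSG1. In PSG4, PSG6, PSG2, PSG1 and PSG11 this start lies inside the span of the whole gene, so the distances depend on the transcript chosen. On either strand, CCCGCCC was found in 45.7%, CCCACCC in 21.6% and CCTGCCC in 16.8% of the 250-base promoters of 19881 protein-coding genes, so each form is common. No member's promoter held TATAAA, which 9.26% of all promoters held, or the nuclear receptor element AGGTCA, which 9.90% held. None held GGAAGT, a longer form of the ETS element, found in 20.8% of all promoters. The shorter letters GGAA do stand in both promoters printed above. A run of TGTGTGTG stood in all 10 promoters and in 2.75% of all promoters. A match of letters is a description and not a binding site.

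In parental cells the family was close to silent at this depth, with 17 reads over its 10 genes in a library of 30741953 reads, and in CARM1 KO cells it had 1050 reads in a library of 32300391. Scaled by the trimmed mean of M values (TMM), this was 0.546 and 32.9 CPM (counts scaled by library size), a 60.3-fold difference (95% interval 37.5 to 104). Without PSG4 the total went from 9 to 385 reads, 41.8-fold higher in CARM1 KO cells (21.8 to 92.1). RSEM, the program used by the authors, divides reads between copies that share sequence, and the family total does not depend on how reads were divided within the family. A bulk count cannot tell more cells with PSG RNA apart from more PSG RNA per cell. In CARM1 KO cells 5332 single genes had more reads than the whole PSG family, so the family was not among the abundant transcripts.

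A gene was placed past the threshold when its scaled counts differed by more than 3-fold, the fold threshold of the study, and its counting interval left out a fold of 1. A count of 0 was set to 3 reads, the most that a count of 0 allows at 95%. The value is then called a floor fold, which bounds only the side with 0 reads and takes the other count as exact. Its counting interval can therefore begin below it. By this rule 8 of the 10 members were higher in CARM1 KO cells, none was lower, and 2 were not past the threshold. The setting to 3 applied to counts of exactly 0, so a single parental read can decide a call. PSG1, with 1 and 9 reads and an interval from 1.22, was past the threshold. PSG8, with 0 and 8 reads and an interval from 1.67, was not. The same rule placed 8.6% of the 26878 genes tested, those with any read, as higher. Because the members were chosen from this comparison, nothing is read from the difference between these shares. All 10 members had reads in CARM1 KO cells, while 6 had 0 reads in parental cells. The members had a median log2 fold of 3.14 (prior count of 2) and of 2.67 with counts of at most 3 set to 3, and all genes tested had a median of -0.03.

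**Figure D1:**
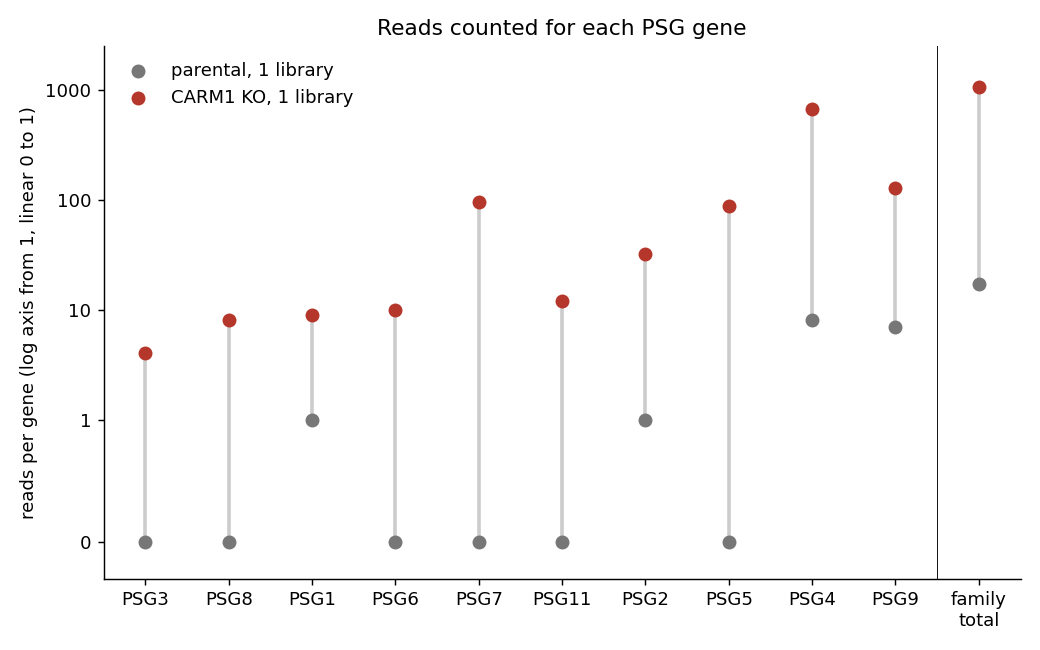
Reads counted for each PSG gene (x axis, in chromosome order, with the family total at the right) in the parental library (grey points) and the CARM1 KO library (red points), on a y axis that is logarithmic from 1 and linear from 0 to 1. Grey lines join the libraries. Every red point lies above its grey point, 6 grey points sit at 0, and PSG4 reaches 665 reads.

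PSG4 had the largest share of the reads. It lies at chr19:43696854-43711451 (ENSG00000243137) and encodes 419 codons in 6 exons. Its reads went from 8 in parental to 665 in CARM1 KO cells, an 81.2-fold difference (41.0 to 189). Only 2 of all genes tested had a larger log2 rise, with a prior count of 2. PSG4 held 47.1% of the family's reads in parental cells (exact binomial interval 23.0 to 72.2) and 63.3% in CARM1 KO cells (60.3 to 66.3). These intervals overlap, and the parental one is wide because the family had 17 reads there. A change of the share was not tested.

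PSG9, its neighbour at the high-coordinate end (chr19:43715943-43773682, ENSG00000183668), is the other member with more than 1 read in parental cells. It went from 7 to 128 reads, 17.9-fold higher (8.42 to 45.3), and its fold interval overlaps that of PSG4 only from 41.0 to 45.3. PSG9 thus had nearly as many reads as PSG4 in parental cells, and fewer in CARM1 KO cells. PSG9 is known to activate latent TGF-beta1, as PSG1 is.

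PSG7 and PSG5 had 0 reads in parental cells and were both clearly counted in CARM1 KO cells. PSG7 (chr19:43428284-43441359, ENSG00000221878) went from 0 to 95 reads, a floor fold of 30.9, with a counting interval that begins at 24.7. PSG5 (chr19:43670408-43690688, ENSG00000204941) is the gene whose promoter was used to isolate the factor now called KLF6. It went from 0 to 87 reads, a floor fold of 28.3, with an interval from 22.6. They stood 6th and 7th among all genes tested by log2 rise, after PSG4 at 3rd. PSG2 (chr19:43568361-43587197, ENSG00000242221) had 1 read in the parental and 32 reads in the CARM1 KO library, a ratio of 31.3 with a wide interval from 5.22 to 1273. These 5 genes, PSG4, PSG9, PSG7, PSG5 and PSG2, are the members whose whole interval lay above 3, which 4.81% of all genes tested also reached as higher genes and 4.59% as lower genes.

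The other 5 members had from 4 to 12 reads in CARM1 KO cells. PSG11 (chr19:43511808-43530626, ENSG00000243130) went from 0 to 12 reads, a floor fold of 3.91, with an interval from 2.71. PSG6 (chr19:43406238-43423715, ENSG00000170848) went from 0 to 10 reads and was the member just inside the threshold, with a floor fold of 3.26 and an interval from 2.19. PSG1 (chr19:43370616-43383974, ENSG00000231924), the best studied member, had 1 read in the parental and 9 reads in the CARM1 KO library, a ratio of 8.79 (1.22 to 385). PSG8 (chr19:43256838-43269830, ENSG00000124467) had 0 and 8 reads, a floor fold of 2.60 that fell just outside the threshold. PSG3 (chr19:43225790-43244633, ENSG00000221826) had 0 and 4 reads, a floor fold of 1.30 whose interval begins at 0.645, so a difference was not detectable for it at this depth. At 0 reads the limit for a member in the parental library was 0.0963 CPM.

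**Figure D2:**
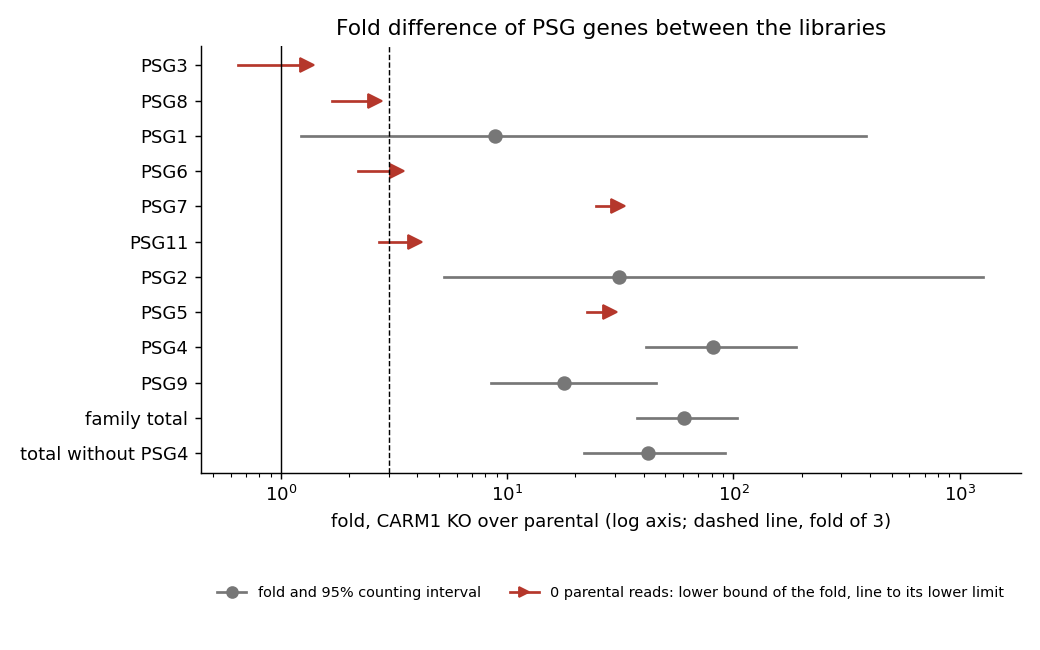
Fold of CARM1 KO over parental (x axis, logarithmic) for each PSG gene, for the family total and for the total without PSG4. Grey points are folds with 95% counting intervals as lines. Red arrowheads are floor folds, with 0 parental reads set to 3, and have a line to the lower limit of the interval. The solid and dashed lines mark folds of 1 and 3. PSG4, PSG9, PSG2, PSG7, PSG5 and both totals lie above 3 with their whole interval.

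Divided by the merged exon length, the levels in CARM1 KO cells can be set in order. PSG4 was highest at an RPKM, its reads divided by the exon length and by the scaled library size, of 3.32 (3.08 to 3.59). PSG9 at 0.795 (0.663 to 0.946), PSG7 at 0.618 (0.500 to 0.755) and PSG5 at 0.583 (0.467 to 0.719) followed, each with an interval that overlaps the next. PSG2 stood at 0.354 (0.242 to 0.500), and its interval met those of PSG7 and PSG5. PSG11 (0.0754), PSG8 (0.0635), PSG6 (0.0611), PSG1 (0.0569) and PSG3 (0.0369) had levels per length whose counting intervals all overlapped. PSG4 made up 55.7% of the family per length, or 64.0% where the longest annotated transcript was used as the length.

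**Figure D3:**
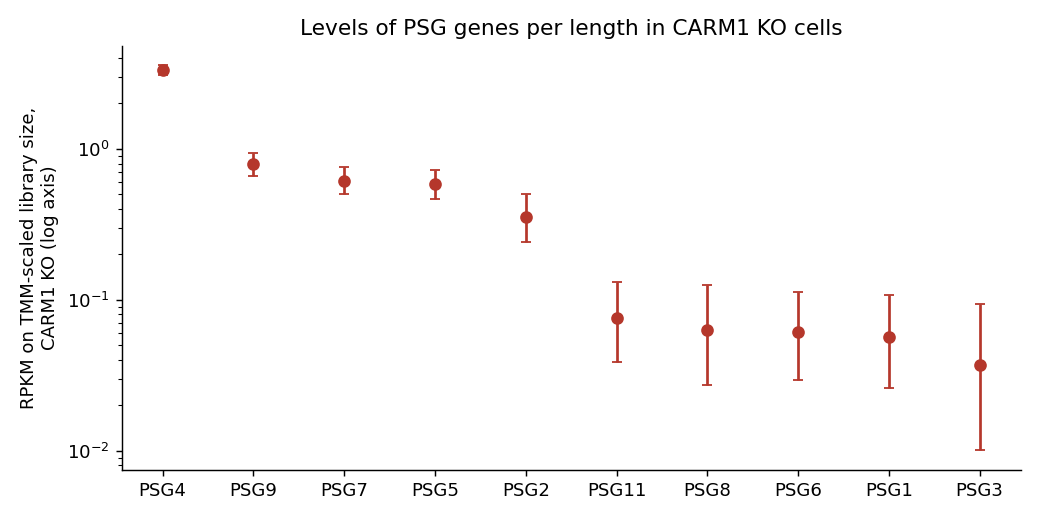
Level per length in CARM1 KO cells (y axis, RPKM on TMM-scaled library sizes, logarithmic) of the 10 PSG genes (x axis, ordered by level). Points are the 1 library, and bars are 95% counting intervals. PSG4 at 3.32 stands above the rest, and the 5 lowest genes, from 0.0754 to 0.0369, overlap.

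The 3 forms of the promoter element were set beside the reads in CARM1 KO cells for description only. The element was chosen after the sequences were seen, and a link between its form and the reads was not tested. The members with CCCACCC had 32 (PSG2), 87 (PSG5) and 95 (PSG7) reads in CARM1 KO cells. Those with CCCGCCC ranged from 4 reads (PSG3) to 665 (PSG4), so the most and the least counted members share this form. The pair with CCTGCCC had 9 (PSG1) and 12 (PSG11) reads. By position, the member with the most reads and its neighbours PSG5 and PSG9 lie together at the high-coordinate end. In parental cells PSG4 and PSG9 held 15 of the 17 reads and PSG5 had 0. In CARM1 KO cells the 3 genes held 83.8% of the reads. PSG7 lies apart from them, and the genes between it and PSG5, PSG11 and PSG2, had 12 and 32 reads.

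How far copies can be told apart was read from the reference. The first 75 bases of coding sequence, the length of a read, are shown for the 4 members with the most reads in CARM1 KO cells, because they show how few bases separate the copies. They span the end of exon 1 and the start of exon 2, at chr19:43709625-43709688 and chr19:43708393-43708403 in PSG4, chr19:43773520-43773583 and chr19:43772291-43772301 in PSG9, chr19:43441165-43441228 and chr19:43439911-43439921 in PSG7, and chr19:43690494-43690557 and chr19:43689289-43689299 in PSG5. Capitals mark the bases that differ from PSG4.
PSG4: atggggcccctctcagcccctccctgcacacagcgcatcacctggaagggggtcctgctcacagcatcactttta
PSG9: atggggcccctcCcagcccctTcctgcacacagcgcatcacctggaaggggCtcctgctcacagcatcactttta
PSG7: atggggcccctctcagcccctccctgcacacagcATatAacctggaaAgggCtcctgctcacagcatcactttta
PSG5: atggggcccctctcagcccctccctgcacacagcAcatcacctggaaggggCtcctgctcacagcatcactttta
Counted from 1 at the A of the start codon, every other member carried G52C relative to PSG4, and the members differed from PSG4 at 2 to 6 of the 75 bases. Within the stretch, G35A was found in PSG7 and PSG5 of the sequences shown, and T13C and C22T in PSG9. Over whole coding sequences the identity to PSG4 ran from 91.6% (PSG11) to 94.1% (PSG3) of aligned bases. PSG11, PSG2 and PSG5 are shorter, with 335 codons against 419 to 428 in the other 7.

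Exact stretches of 75 bases were mostly particular to a gene. In PSG4, 93.5% of such stretches of its annotated transcripts occurred in no other gene, and in the other members this share ran from 77.8% (PSG9) to 92.9% (PSG7). PSG9 shares bases with the annotated pseudogene CEACAMP10, which spans part of the same locus, and against the other members alone its share was 87.0%. When up to 2 mismatches were allowed, a criterion chosen after seeing the data, the share with no other member within reach fell to 64.0% in PSG4 and ranged from 41.3% (PSG8) to 70.2% (PSG5). At 150 bases, 100% of the stretches of PSG4 were in no other gene. In the other members this share ran from 88.9% (PSG9) to 99.8% (PSG6), with 97.8% in PSG8. Between 4.50% (PSG2) and 16.2% (PSG8) of the stretches of the other members lay within 2 mismatches of PSG4. Few exact stretches of 150 bases were shared, but shorter stretches with mismatches were shared more often. The few reads of PSG3, PSG8, PSG1, PSG6 and PSG11 remain uncertain, since part of them could have been assigned from PSG4 or another copy. How much was not tested.

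**Figure D4:**
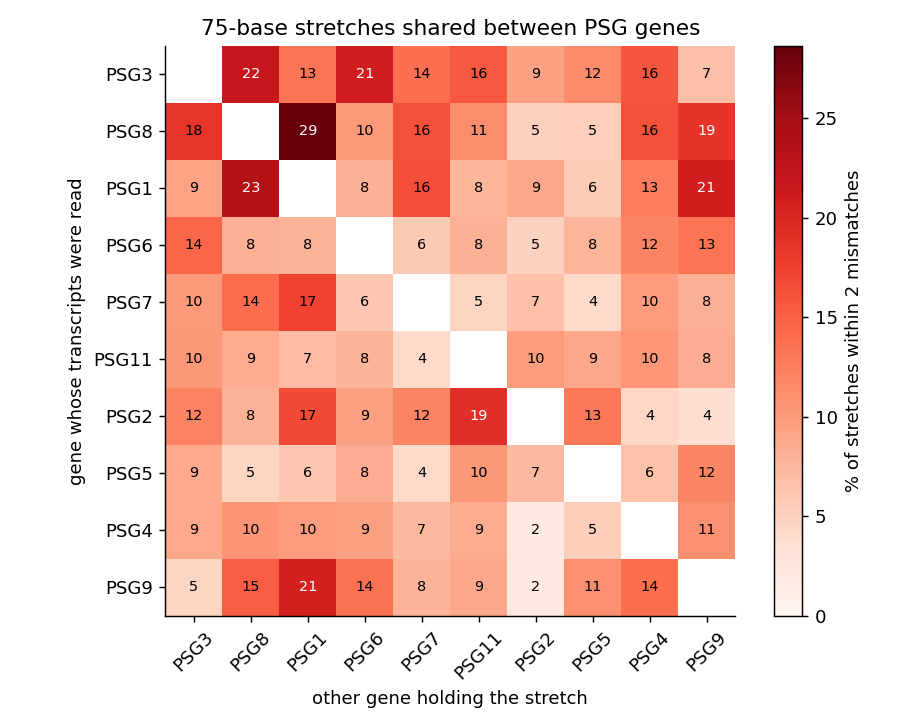
Percent of the 75-base stretches of each gene's transcripts (rows) that lie within 2 mismatches of a stretch in another PSG gene (columns), shown by colour and by the rounded number in each cell. PSG8 and PSG1 share most, with 28.6% of the stretches of PSG8 found in PSG1, and PSG4 shares least with PSG2, at 1.87%.

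Between the outermost PSG genes 10 other genes are annotated, and 8 of them are among the counts. Only PSG8-AS1, an antisense RNA, had a read, with 0 in the parental and 1 in the CARM1 KO library. The pseudogenes PSG10P, CEACAMP6, CEACAMP7, CEACAMP8, CEACAMP9 and CEACAMP10 and the long noncoding RNA ENSG00000227606 had 0 reads in both libraries. ENSG00000291235 and PSG11-AS1 had no entry in the counts. Of the genes with an entry, only the coding members and PSG8-AS1 had reads inside the cluster. PSG11-AS1 is annotated on the plus strand at chr19:43481615-43675667, across PSG11, PSG2 and part of PSG5. Whether strand was used in counting is not stated, so reads of PSG11-AS1 may be among those of these 3 genes. The overlap of their exons was not examined.

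Outside the cluster, the 10 nearest genes on each side with at least 10 reads were compared in the same way. Of these 20 genes, 2 were higher, 1 was lower and 17 were not past the threshold, beside 8.6% higher and 7.92% lower over all genes tested, with a median log2 fold change of -0.11 and a range from -1.52 to 2.88. The nearest on the low-coordinate side was LIPE-AS1, 69.3 kb away, with 59 reads in the parental and 236 in the CARM1 KO library, 3.91-fold higher (2.93 to 5.29). It overlaps LIPE, which encodes hormone-sensitive lipase and went from 68 to 23 reads, 3.03-fold lower (1.86 to 5.09). These genes lie on opposite strands, and whether strand was used in counting is not stated, so their reads may be mixed. PINLYP, 306 kb beyond the other end, went from 17 to 141 reads, 8.10-fold higher (4.88 to 14.3). The nearest gene on that side, PHLDB3 at 205 kb, had 109 and 75 reads and was not past the threshold.

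**Figure D5:**
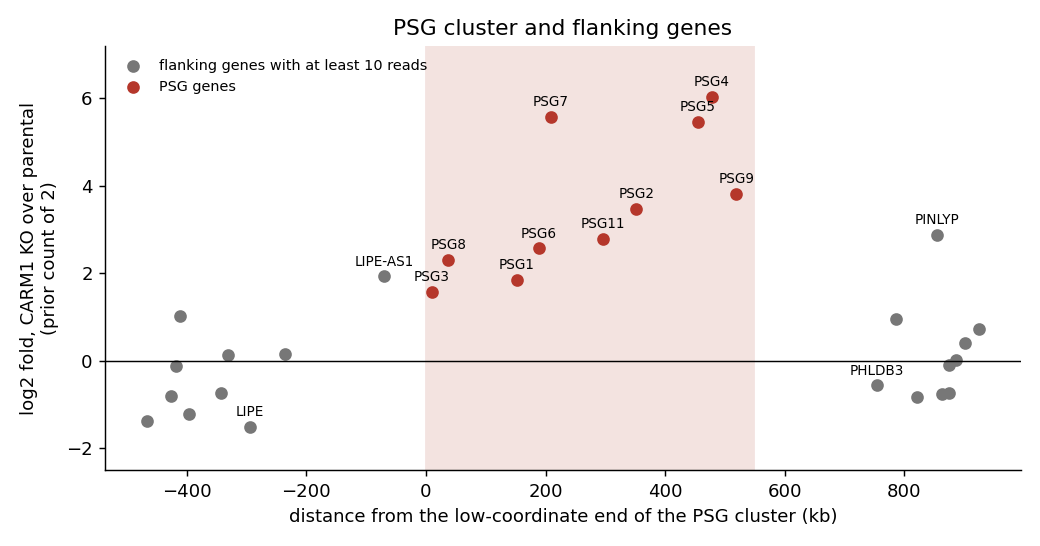
Log2 of the fold, CARM1 KO over parental, at a prior count of 2 (y axis) against the distance from the low-coordinate end of the PSG cluster in kb (x axis). Red points are the 10 PSG genes inside the shaded cluster, and grey points are the 20 flanking genes with at least 10 reads. All PSG points lie above 0, and the flanking genes have a median of -0.11.

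The CEACAM genes are the other branch of the family and lie on the same chromosome. Of 12 listed, 1 had no entry in the counts, 8 had 0 reads in both libraries and 3 had reads, none past the threshold, beside 8.6% of all genes higher and 7.92% lower. CEACAM1, an adhesion receptor of epithelial cells, had 3 and 5 reads in parental and CARM1 KO cells, CEACAM8 had 5 and 2, and CEACAM19 had 15 and 28. The carcinoembryonic antigen gene itself, CEACAM5, had 0 reads in both.

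Because PSG RNA is a product of the trophoblast, 48 other trophoblast and placental genes were read beside it. Of these, 2 had no entry under the listed name, 16 had 0 reads in both libraries and 30 had reads, of which 5 were higher, 2 were lower and 23 were not past the threshold. That is 16.7% higher and 6.67% lower, beside the shares of 8.6% and 7.92% over all genes tested. The median log2 fold change of the 30 was 0.58 with a prior count of 2 and -0.03 with counts of at most 3 set to 3, so its sign depends on genes near 0 reads. Of the 6 defining markers, CGB5, described next, was the 1 past the threshold, with 0 and 18 reads. CGA, the common alpha subunit of the gonadotropins, had 0 reads in both libraries. GCM1, a regulator of syncytiotrophoblast formation, had 3 reads in the parental and 0 in the CARM1 KO library, the fusion protein gene ERVW-1 had 20 and 21, placental lactogen CSH1 had 6 and 0, and HLA-G had 0 and 8.

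The higher trophoblast genes had few reads. CGB5 and CGB8 are nearly identical copies for the beta subunit of chorionic gonadotropin, and the division of reads between them is uncertain. CGB5 went from 0 to 18 reads (a floor fold of 5.86) and CGB8 from 5 to 18 reads (3.52-fold, 1.26 to 12.1). ERVV-2, an endogenous retroviral envelope gene, went from 1 to 23 reads, a ratio of 22.5 (3.65 to 925). TFAP2C, a transcription factor of early trophoblast, went from 1 to 12 (11.7-fold, 1.73 to 501), and PLAC1 from 15 to 48 (3.13-fold, 1.72 to 6.01). GATA2, which takes part in trophoblast gene expression, fell from 1090 to 292 reads, 3.82-fold lower (3.36 to 4.36), and the imprinted placental gene PEG10 fell from 25234 to 5641, 4.58-fold lower (4.45 to 4.71).

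Genes for proteins that bind PSG proteins or that act with TGF-beta moved in both directions. Of 32 listed, 8 were higher, 5 were lower and 19 were not past the threshold, which is 25.0% higher and 15.6% lower beside 8.6% and 7.92% of all genes tested, a difference that was not tested. TGFB1, the ligand whose latent form PSG1 and PSG9 activate, had 321 reads in the parental and 241 in the CARM1 KO library, under the threshold. TGFB3 fell from 99 to 14 reads, 7.24-fold lower (4.12 to 13.7). The receptor gene TGFBR2 rose from 294 to 1024 reads, 3.40-fold (2.99 to 3.89).

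Genes for proteins that hold TGF-beta in its latent form also differed. LTBP1 (261 to 74 reads, 3.61-fold lower, 2.78 to 4.74), LTBP4 (337 to 113, 3.05-fold lower, 2.46 to 3.81) and LRRC32 (45 to 1, a ratio of 46.1, 7.86 to 1860) were lower. LTBP2 was higher, with 70 and 238 reads (3.32-fold, 2.53 to 4.40), as was THBS1, an activator of latent TGF-beta, with 4510 and 35487 (7.69-fold, 7.45 to 7.93). IL6, a cytokine that PSG proteins induce in leukocytes, went from 30 to 136 reads, 4.43-fold higher (2.96 to 6.81).

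Among genes for cell-surface partners, CD9, a tetraspanin that binds PSG proteins of the mouse, rose from 624 to 2013 reads (3.15-fold, 2.88 to 3.45). SDC2, a heparan sulfate proteoglycan, rose from 1128 to 4424 (3.83-fold, 3.59 to 4.09). ITGA2B and ITGB3, which form the platelet integrin, went from 16 to 130 reads (7.94-fold, 4.71 to 14.3) and from 5 to 68 (13.3-fold, 5.42 to 42.2). ITGAV, which pairs with several beta chains to activate latent TGF-beta, fell from 36023 to 9664, 3.82-fold lower (3.73 to 3.90). The subunits of the fibronectin receptor, ITGA5 with 955 and 1115 reads and ITGB1 with 63012 and 43374, were not past the threshold.

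Of 16 genes for factors studied at PSG promoters or bearing on the knockout, 2 were higher (12.5%), 1 was lower (6.25%) and 13 were not past the threshold, shares near the 8.6% and 7.92% over all genes tested. KLF6 had 1007 reads in the parental and 4191 in the CARM1 KO library, 4.06-fold higher (3.79 to 4.36). KLF4, a related factor, had 18 and 76 reads, 4.12-fold higher (2.44 to 7.33). RARB, a retinoic acid receptor, had 803 and 77 reads, 10.7-fold lower (8.44 to 13.7). The CACCC-like sequence printed above was present in PSG7, PSG2 and PSG5, and what binds it in these cells was not measured.

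None of the other 13 factor genes passed the threshold. SP1 had 5075 and 4529 reads in parental and CARM1 KO cells, and SP3 had 5526 and 6036. GABPA and GABPB1, which form an ETS factor, had 2390 and 2025 and 1378 and 1333 reads. Among nuclear receptors, RXRA had 627 and 662 reads, RXRB 307 and 680, and RARA 172 and 90. The coactivators CREBBP and EP300 had 647 and 712 and 1336 and 674 reads. EZH2, EED and SUZ12, the core of the complex that methylates H3K27, had 3141 and 5380, 2178 and 4114, and 2487 and 3143 reads. CARM1, the targeted gene, had 975 and 380 reads, 2.63-fold lower (2.33 to 2.97) and under the threshold. This is RNA and does not measure the protein, which the paper examined in its knockout clone by immunoblot.

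The protein-coding genes whose log2 fold change lay nearest that of the PSG family total, 5.76 with a prior count of 2, were sought, with the PSG genes themselves left out, among 11767 candidates with at least 100 reads over both libraries. CT45A4, a cancer-testis antigen gene with near-identical copies, had 0 and 110 reads and differed from the family by 0.03 on the log2 scale. GALNT3, a glycosyltransferase that starts O-glycosylation, had 1 and 130 reads and differed by -0.32. ACTC1, cardiac actin, had 14 and 626 reads and differed by -0.50. This likeness rests on 1 pair of libraries.

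The libraries also differed in markers of cell identity, in both directions. Of 11 markers of epithelial ovarian cancer, 6 were higher and 2 lower in the CARM1 KO library, beside 8.6% and 7.92% of all genes tested, and their sum went from 1412 to 4751 CPM. PAX8 (311 and 1149 reads), EPCAM (249 and 848), KRT7 (4417 and 26653), KRT8 (17600 and 70370), MSLN (201 and 1188) and CDH1 (3 and 53) were higher. KRT19 (45 and 0) and WT1 (8 and 1) were lower, KRT18 (21154 and 51223) was not past the threshold, and MUC16 (0 and 1) and WFDC2 (0 and 5) were at or near 0 in both libraries. Of 5 fibroblast markers, 3 were lower (THY1 with 678 and 4 reads, LUM with 61 and 1, DCN with 24 and 0) and 1 was higher (COL1A1 with 131 and 537), and their sum was 32.9 and 21.5 CPM. Of 4 leukocyte markers, 2 were higher and their sum went from 13.1 to 51.8 CPM, which was nearly all CD68 (400 and 1644 reads), while CD14 had 1 and 9, PTPRC 6 and 0 and CD3E 0 in both. Of 3 endothelial markers, PECAM1 had no entry in the counts, CDH5 had 0 reads in both libraries and VWF had 1 and 2. Their sum of 0.0321 and 0.0627 CPM is thus that of VWF alone. The 6 defining trophoblast markers summed to 0.931 and 1.47 CPM, against 0.546 and 32.9 for the PSG family. The part of these differences in the PSG values was not tested.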

How the data were processed

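Ribosome-depleted libraries were read as 75-base pairs. The authors placed the reads on hg19 (bowtie2), assigned them to Ensembl genes (RSEM) and deposited raw counts. Strand use and the Ensembl release are not given in the sources used here. Library totals were 30741953 and 32300391 reads. GENCODE for GRCh37 named 55501 of 57736 identifiers. Counts were scaled by TMM in edgeR 4.0.16 (R 4.3.3). With 1 library per group no spread can be estimated, so no test was run, and folds have exact binomial (Clopper-Pearson) intervals from scipy 1.17.1 over the 26878 genes with at least 1 read. Scaling, intervals and the call rule were tested on simulated counts that held counting error only. The genes changed there were drawn from those with at least 50 reads over both libraries, more than most members had. The sequence steps were not simulated. The genes named are all members, all genes annotated inside the cluster, genes of each list past the threshold, all promoter factors, flanking genes past the threshold or nearest, and the 3 genes nearest the family total. Other genes named were chosen after their values were seen. The members and lists were chosen with earlier results of these data known, and the TG run and the 7-base element were chosen after the sequences were seen. Promoters and coding starts were read from GRCh37 at the annotated canonical transcripts, and the 250 bases end before the start. Identities were computed with Biopython 1.88. Alternatives were the size factors of DESeq2 1.42.0, upper-quartile scaling, library size only, other thresholds and read minimums. ChIP-seq was not analysed here.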

Additional observations from a re-analysis of the deposited data

How the results depend on the processing

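No paired analysis was possible because each group has 1 library, and for the same reason no library could be left out. The family total was 58.8-fold, 61.8-fold and 61.0-fold higher with library size only, DESeq2 size factors and upper-quartile scaling, and 8 members were higher under each. Requiring the whole interval past a fold of 3 left 1292 higher and 1234 lower genes, 5 higher PSG members (PSG1, PSG6 and PSG11 no longer passed), 2 higher trophoblast genes, 4 higher and 3 lower partner genes and 1 higher promoter factor, since the rule is stricter. With at least 50 reads over both libraries 1649 genes were higher and 1219 lower, and 4 PSG members remained to be compared, all higher. A fold above 2 gave 3504 higher and 3422 lower genes, and 9 higher PSG members, PSG8 among them. With zero counts kept at 0, chosen after seeing the data, 9 members were higher. PSG4 made up 64.0% of the family per length by the longest transcript, and its share of stretches in no other gene was 100% at 150 bases and 64.0% with 2 mismatches allowed. Under the scalings and the stricter rule, single PSG genes were compared 40 times, 37 kept their direction and side of the threshold and 3 lost the call, those just named. A prior count of 2 gives fitted folds with no call, and all 10 lay within the counting interval. It moved PSG1 from 8.79 to 3.62, PSG2 from 31.3 to 11.2 and PSG8 from a floor fold of 2.60 to 4.95. The other members with 0 parental reads had values from 2.98 (PSG3) to 47.9 (PSG7), which depend on the prior and are no bounds. The parental counts of 0 to 8 reads limit every fold.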
